A study of Mus musculus with 23 samples.

Results

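Among the 23 libraries of the series, 12 hold RNA from the cell-body (soma) side of mouse hippocampal cultures, and these fall into 2 sets of 6 by the replicate number in their titles. Set A holds numbers 1, 2, 3 and 8 (control 1, 2 and 3, stretched 1, 2 and 8). Set B holds numbers 4, 5 and 6 in both conditions. The sets were chosen by expression of Eif2s3y, a Y-linked gene, which lay at 24.5 to 28.9 CPM (counts scaled by library size) in set A and at 5.54 to 13.1 CPM in set B. Those values are a description, with no test. The comparisons below rest on genes of the autosomes (chromosomes 1 to 19) alone. The labels do not say what a number stands for, so the sets are called sets of libraries and nothing more.

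All cultures came from C57Bl/6 pups of postnatal day 1, with 200000 cells seeded on the soma side of a microfluidic chamber that lets axons grow into a separate compartment. Every culture, controls included, received magnetic nanoparticles (MNP) at 5 µg/ml. Stretched cultures were held in a magnetic field gradient of 50 T/m from day in vitro 1 to 6, and control cultures in a null gradient. Each combination of set and condition had 3 libraries, and the labelled cell type is the whole culture, a mixture of neurons and other cells. Nothing in the labels says that the libraries came from separate animals or cultures, so p-values measure only the spread between these libraries, which may be technical.

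Total counts were 20457514 to 30451437 in set A and 22421554 to 30732600 in set B. The sets overlapped in the share of mitochondrially encoded counts (1.19% to 1.72% in set A, 1.31% to 1.6% in set B) and of ribosomal protein genes (up to 1.56% and up to 1.53%). The slope of each library's log2 levels, relative to the mean of all 12, on log2 transcript length overlapped too. It was -0.139 to 0.0724 in set A (median -0.0133) and -0.0749 to 0.098 in set B (median 0.063). Over autosomal genes, stretched and control libraries lay mostly apart on principal component 1 (28.4% of the variance). On component 2 (19.2%) set A lay at 14.35 to 29.96 and set B at -50.53 to -4.74. The library labelled control soma 4 stood apart from its condition: it lay at 32.11 on component 1, near stretched 4 at 34.32, while the other 5 controls lay at -53.2 to -26.19. The fits were repeated without it.

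**Figure D1:**
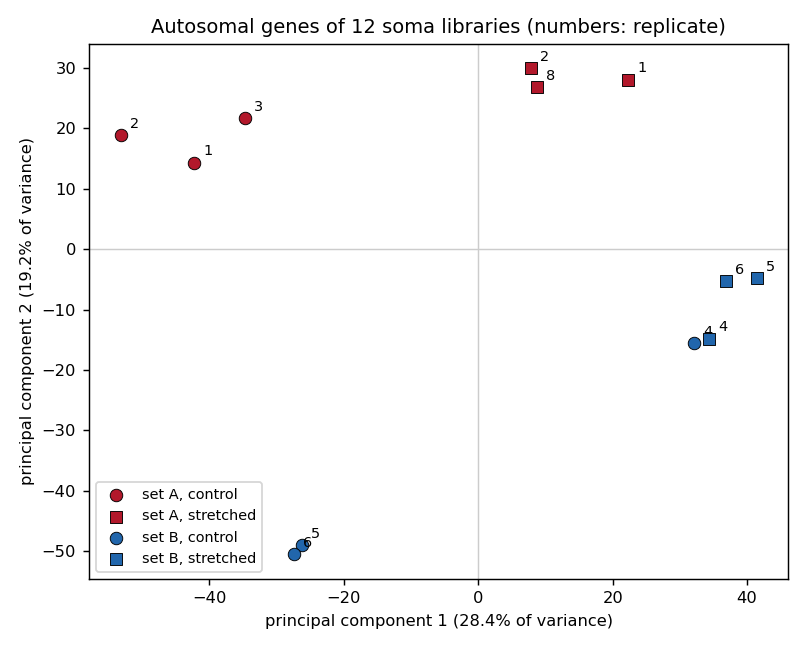
Positions of the 12 soma libraries on the first principal components of log2 CPM over autosomal genes (axes give the share of variance, colours the set, shapes the condition, numbers the replicate). Set A lies at 14.35 or above and set B at -4.74 or below on component 2, and control 4 sits beside stretched 4.

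Cultures of newborn hippocampus contain glutamatergic and GABAergic neurons together with astrocytes, progenitors and few microglia and oligodendrocyte precursors, and the glial cells go on dividing. When neurons fire, calcium entry switches on immediate early genes such as Fos, Arc and Npas4, and a later wave that includes secreted proteins such as Bdnf follows. As neurons mature they lower genes of migration and outgrowth and raise those of synapses and ion channels.

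With stretch as a covariate, 2039 of 16175 autosomal genes differed between the sets (12.6%; edgeR's quasi-likelihood test, Benjamini-Hochberg adjusted p under 0.05, called "passed" from here on). Of these, 1111 were higher in set A (6.87% of the genes tested) and 928 were lower (5.74%). Differences are log2 fold changes, set A minus set B, and levels are CPM after TMM scaling. The median difference was -0.01 over all genes, 7826 of which had a positive difference, and the median size was 0.60 over those that passed. A difference of at least 1 in either direction was found for 464 genes that passed. In 488 genes (3.02%) every library of set A lay above every library of set B, and in 287 (1.77%) the reverse held. Gene lists for cell types, activity, maturation and cell state order what follows, and their counts stand beside the shares of all genes given here. In bulk RNA, fewer cells of a type and less RNA per cell cannot be told apart.

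**Figure D2:**
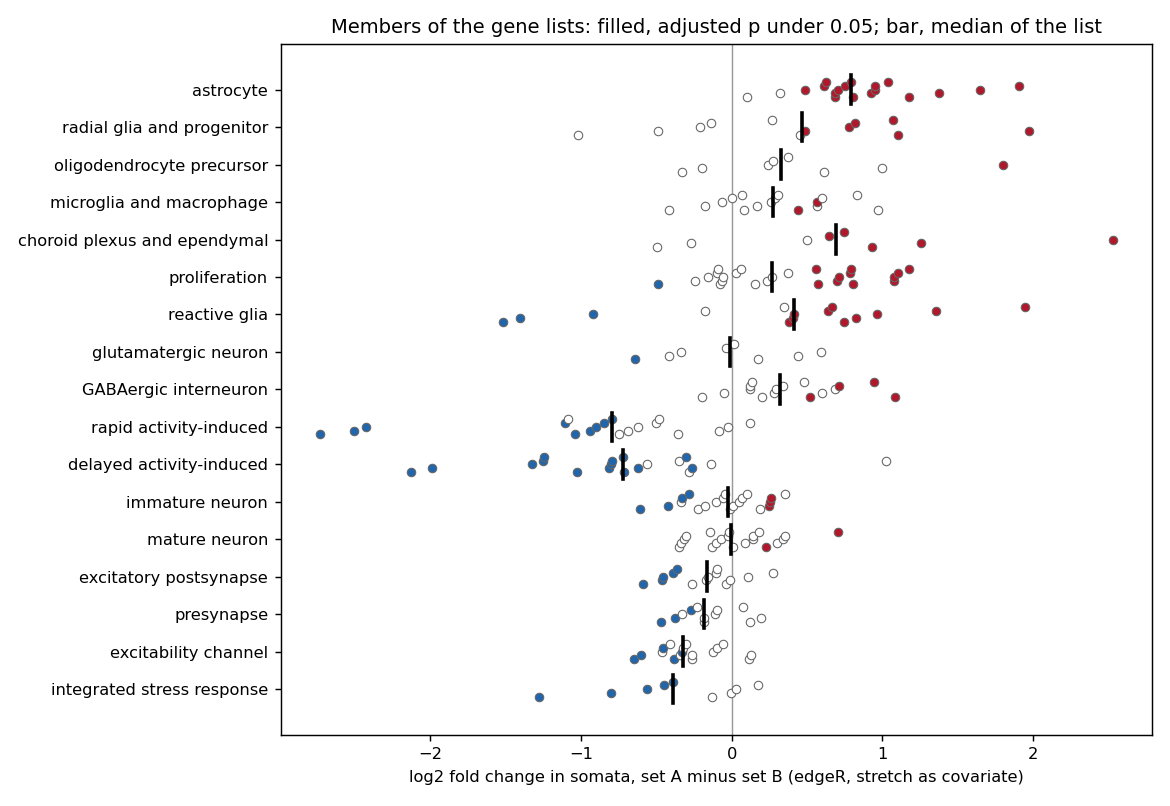
Log2 fold change (set A minus set B, edgeR) of the tested members of gene lists, with filled points for adjusted p under 0.05 and a bar at each list's median. The astrocyte list sits to the right with a median of 0.79, and the rapid and delayed activity lists sit to the left with medians of -0.79 and -0.72.

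Astrocyte genes were higher in set A. Of 19 astrocyte markers 17 passed, all higher in set A, against 6.87% of all genes. In 14 of them every library of set A lay above every library of set B, against 3.02% of all genes. Gfap, the intermediate filament protein of astrocytes (chr11:102887336-102900912, mm10), was at 7746, 10429 and 8079 CPM in control and 8080, 8248 and 7452 CPM in stretched libraries of set A. In set B it was at 3499, 4560 and 4197 CPM in control and 4110, 4304 and 3697 CPM in stretched libraries. The lowest library of set A was thus well above the highest of set B, and the difference was 1.04 (SE 0.09, edgeR adjusted p = 1.42e-06).

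Genes of astrocyte membranes followed the same order. Aqp4, the water channel of astrocyte endfeet, was at 434, 497 and 424 CPM in control and 397, 392 and 360.2 CPM in stretched libraries of set A. In set B it was at 157, 184 and 176 CPM in control and 176, 224 and 189.5 CPM in stretched libraries, with no overlap (1.18, SE 0.09, edgeR adjusted p = 9.35e-07). Gja1, which codes for the gap junction protein connexin 43, ranged from 174 to 322 CPM in set A and 59.9 to 119 CPM in set B (1.37, SE 0.12, edgeR adjusted p = 1.74e-06). The glutamate transporters Slc1a2 (0.61, SE 0.09) and Slc1a3 (0.69, SE 0.08), which clear transmitter from the synaptic cleft, also passed without overlap. So did Aldh1l1, a folate enzyme used as a pan-astrocyte marker (0.80, SE 0.08), and Sparcl1, a secreted protein that promotes synapse formation (0.71, SE 0.06).

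The gap junction gene Gjb6 (1.90, SE 0.46) and the neurotensin receptor gene Ntsr2 (1.65, SE 0.44) had the highest differences of the list at low levels, 0.164 to 0.84 and 1.91 to 6.73 CPM in set A. The call of Ntsr2 was lost without control 2 or stretched 2, 4, 5 or 8 (1.49 to 1.65, edgeR adjusted p 0.0536 to 0.0575). Fgfr3 (0.32, edgeR adjusted p = 0.320) and Slc4a4 (0.10, edgeR adjusted p = 0.640) were the 2 members that did not pass. Summed over the list, astrocyte markers held 13872 to 17857 CPM in set A and 6965 to 8818 CPM in set B. Without Gfap, the most abundant member, the sums were 6368 to 7428 and 3466 to 4258 CPM. The count of members higher in set A was 14 to 18 over 24 alternative settings, and 17 without control 4.

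Radial glia and progenitor genes differed in part. Of 12 tested, 6 passed, all higher in set A, against 6.87% of all genes. Over the 24 alternatives 3 to 8 were higher and 0 to 1 lower. Hopx, a marker of quiescent hippocampal stem cells and astrocytes, was at 20.8, 25.7 and 28.9 CPM in control and 17.04, 17.2 and 17.6 CPM in stretched libraries of set A and at 8.25, 10.2 and 10.04 CPM in control and 9.5, 12.4 and 7.79 CPM in stretched libraries of set B, with no overlap (1.10, SE 0.15, edgeR adjusted p = 0.000155). Sox2 (1.07), Hes5 (0.82), Pax6 (0.78) and Fabp7 (0.48), the last lost in 1 of 24 alternative settings, also passed. Nes, the intermediate filament of neural stem cells, did not (-0.21, SE 0.21), nor did Vim (0.27, SE 0.10). Astrocytes express several of these genes too, and the part of the astrocyte sums given above in these values was not tested.

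The counts of the remaining glial, vascular and meningeal lists stand beside 6.87% of all genes higher in set A and 5.74% lower. Among 8 tested markers of oligodendrocyte precursors 1 was higher in set A, among 16 microglia markers 2 were higher, and among 8 genes of mature oligodendrocytes 1 was higher and 2 were lower. Of 9 endothelial markers 1 was lower, of 9 mural cell markers 2 were lower (list median -0.73, 8 of 9 negative), and of 8 fibroblast and meningeal markers none passed. The microglia count fell to 0 without control 2 or 6, stretched 4 or 8, or both libraries numbered 4. Sox10 and Neu4, genes of the oligodendrocyte line, had no count in any soma library. Pdgfra, the growth factor receptor of oligodendrocyte precursors, was at 1.03 to 5.62 CPM in set A and 0.781 to 3.08 CPM in set B (0.62, SE 0.38, edgeR adjusted p = 0.324). Cx3cr1, the fractalkine receptor of microglia, was at 1.28 to 2.87 and 0.333 to 3.26 CPM (0.60, SE 0.39, edgeR adjusted p = 0.350). Neither gene separated the sets, and the summed microglia markers overlapped, at 92.9 to 221 and 98.8 to 136 CPM.

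Single genes in those lists passed. Olig1, a transcription factor of the oligodendrocyte line, was at 43.1, 36.4 and 51.1 CPM in control and 9.85, 23.6 and 23.0 CPM in stretched libraries of set A. In set B it was at 4.67, 31.6 and 19.5 CPM in control and 3.65, 2.61 and 4.1 CPM in stretched libraries. The sets overlapped, and the difference (1.80, SE 0.45, edgeR adjusted p = 0.0278) was lost without control 3 or stretched 2, 4, 5, 6 or 8 (1.65 to 1.84, edgeR adjusted p 0.0508 to 0.0633). Mbp, which codes for myelin basic protein, was lower in set A, at 7.49 to 11.4 and 14.5 to 17.6 CPM (-0.75, SE 0.12, edgeR adjusted p = 0.000619). Flt1, a receptor for vascular endothelial growth factor, was also lower, at 0.717 to 1.38 and 1.51 to 4.62 CPM (-1.72, SE 0.30, edgeR adjusted p = 0.00108), as was Vtn, the gene of vitronectin (-1.01, SE 0.23, edgeR adjusted p = 0.00974).

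Several of those calls lay close to the threshold. The complement gene C1qa (0.57, edgeR adjusted p = 0.0290) was lost without control 2, 3, 4 or 6 or stretched 2, 4 or 8 (0.46 to 0.58, edgeR adjusted p 0.0522 to 0.0756). Ugt8a, an enzyme of myelin lipid synthesis (-1.27, edgeR adjusted p = 0.0234), was lost without control 4 or stretched 1, 2, 4 or 6 (-1.22 to -1.14, edgeR adjusted p 0.0559 to 0.0616). The peptidase gene Anpep (-0.94, edgeR adjusted p = 0.0256) was lost without control 1, 3 or 6 or stretched 1, 2, 4, 6 or 8 (-0.94 to -0.85, edgeR adjusted p 0.0506 to 0.0693).

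Of 8 tested choroid plexus and ependymal genes 5 were higher in set A, against 6.87% of all genes (list median 0.69). The higher count was 2 to 3 without control 2, 3, 4 or 6 or stretched 1, 2, 4, 5 or 6. Over all 24 alternatives it was 1 to 5. Foxj1, the master regulator of motile cilia, was at 33.9, 41.2 and 44.9 CPM in control and 74.9, 71.98 and 65.1 CPM in stretched libraries of set A. In set B it was at 36.2, 25.03 and 18.3 CPM in control and 36.5, 37.2 and 40.5 CPM in stretched libraries. The sets overlapped over both conditions (0.74, SE 0.14, edgeR adjusted p = 0.00180). Foxj1 did not pass in 1 of 24 alternative settings. Ttr, the transthyretin gene of the choroid plexus (2.53, SE 0.64, edgeR adjusted p = 0.0286), was lost without control 2, 4 or 6 or stretched 2, 4, 5 or 6 (1.96 to 2.61, edgeR adjusted p 0.0567 to 0.0778). Tmem212 (1.25, edgeR adjusted p = 0.0304) was lost without control 2, 3 or 4 or stretched 1, 2, 4 or 6 (1.14 to 1.25, edgeR adjusted p 0.0531 to 0.0641).

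The proliferation list moved unevenly. Of 25 genes 11 were higher in set A and 1 was lower, against 6.87% and 5.74% of all genes. All 11 belong to the 15 listed genes of G2 and mitosis, and none of the 10 listed genes of DNA replication was higher. That division of the list was made after the values were seen. Ccnb1, which codes for the mitotic cyclin B1 (chr13:100778650-100786570, mm10), was at 60.4, 67.1 and 70.1 CPM in control and 40.3, 78.3 and 48.1 CPM in stretched libraries of set A. In set B it was at 27.5, 29.3 and 31.7 CPM in control and 25.2, 23.3 and 24.6 CPM in stretched libraries. The sets did not overlap (1.18, SE 0.13, edgeR adjusted p = 2.37e-05).

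The mitotic cyclin gene Ccnb2 (1.11, SE 0.14), the mitotic kinase gene Plk1 (1.08, SE 0.14), Cdc20, an activator of the anaphase-promoting complex (1.08, SE 0.14), the kinase gene Cdk1 (0.81, SE 0.13) and the topoisomerase gene Top2a (0.79, SE 0.11) also passed. Mki67, the general proliferation marker, was at 11.3 to 22.97 CPM in set A and 12.2 to 18.1 CPM in set B and did not pass (0.23, SE 0.16, edgeR adjusted p = 0.390). The 6 Mcm genes of the replication helicase ranged from -0.24 to 0.03 and none passed. Rrm2, a subunit of ribonucleotide reductase, was lower in every library of set A, at 67.1 to 98.5 and 109.5 to 144 CPM (-0.49, SE 0.09, edgeR adjusted p = 0.00254). The count of higher genes was 10 to 12 over the alternatives. The astrocyte sums moved with these genes, and their part was not tested.

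**Figure D3:**
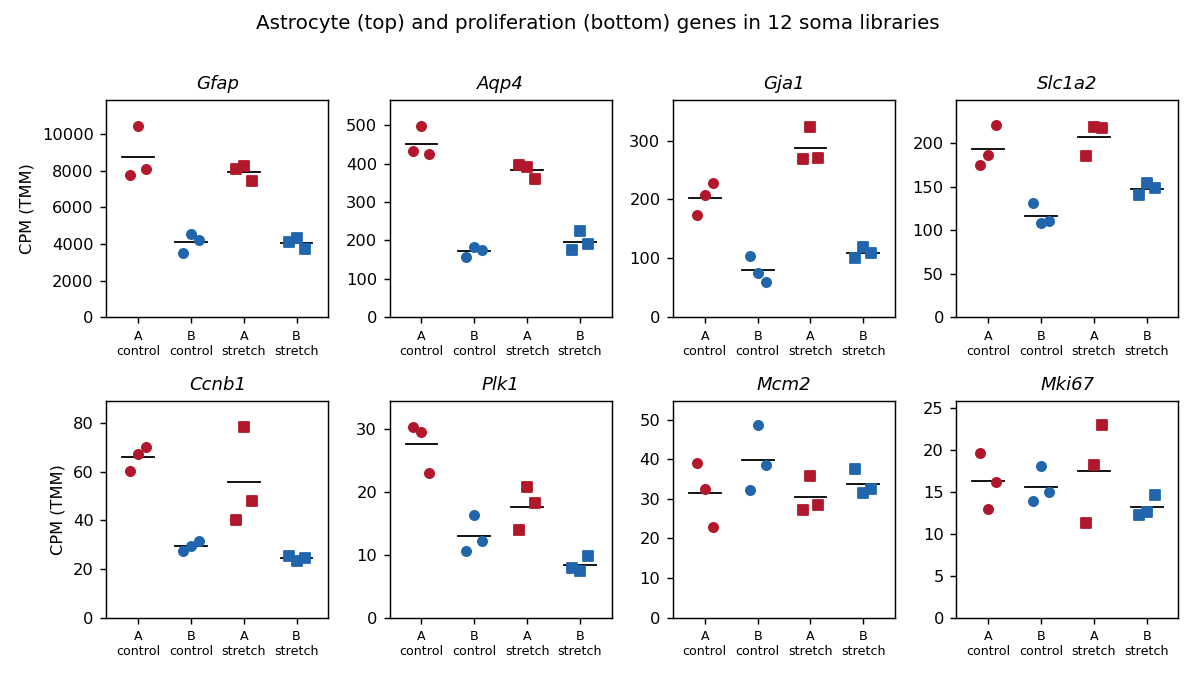
CPM after TMM scaling of astrocyte genes (top) and proliferation genes (bottom) in each soma library by set and condition, with bars at group means. Gfap, Aqp4 and Ccnb1 do not overlap between the sets, whereas Mki67 does.

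Genes of reactive glia changed in both directions. Of 15, 10 were higher and 3 lower in set A, against 6.87% and 5.74% of all genes. Complement C3, which reactive astrocytes produce (chr17:57203970-57228136, mm10), was at 11.8, 13.3 and 12.5 CPM in control and 23.1, 20.5 and 19.9 CPM in stretched libraries of set A. In set B it was at 2.25, 3.56 and 3.87 CPM in control and 5.82, 5.8 and 4.9 CPM in stretched libraries, below every library of set A (1.95, SE 0.14, edgeR adjusted p = 2.97e-07). Serpina3n, a protease inhibitor (0.82, SE 0.10), and Steap4, a metalloreductase (0.96, SE 0.13), were higher too. Lcn2, the iron-binding protein lipocalin 2 (1.36, edgeR adjusted p = 0.0250), was lost without control 2 or stretched 1 or 6 (1.26 to 1.30, edgeR adjusted p 0.0539 to 0.0577). The chemokine genes of the list went the other way: Ccl2 was at 10.98 to 27.6 CPM in set A and 39.8 to 56.7 CPM in set B (-1.40, SE 0.18), and Cxcl10 at 1.22 to 6.1 and 4.41 to 13.3 CPM (-1.52, SE 0.29). The astrocyte sums moved with the higher members, and their part was not tested.

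Lists of neuron types differed in how many members passed, beside 6.87% of all genes higher in set A and 5.74% lower. Slc17a7, the vesicular glutamate transporter VGLUT1, was at 28.03, 22.5 and 39.3 CPM in control and 30.2, 30.6 and 29.5 CPM in stretched libraries of set A. In set B it was at 26.7, 26.5 and 28.2 CPM in control and 30.3, 23.1 and 25.01 CPM in stretched libraries, with overlap (0.17, SE 0.12, edgeR adjusted p = 0.381). Of 8 glutamatergic markers Slc17a6, which codes for VGLUT2, alone passed, at 47.2 to 66.9 CPM in set A and 75.99 to 94.2 CPM in set B (-0.64, SE 0.09, edgeR adjusted p = 0.000277). With stretched 6 left out, 2 of them were lower. The summed glutamatergic markers were 759.9 to 917 CPM in set A and 728 to 864 CPM in set B. None of 8 Cajal-Retzius markers passed, but all 8 had negative differences (median -0.25) and their sums did not overlap, at 579 to 729 CPM in set A and 731 to 847 CPM in set B. With control 1 or 5 or stretched 4 left out, 1 of them was lower.

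Neither GABA-synthesizing enzyme passed. Gad1 was at 96.4 to 180 CPM in set A and 95.8 to 166 CPM in set B (-0.05, SE 0.13, edgeR adjusted p = 0.832), and without control 4 the difference was 0.11 (edgeR adjusted p = 0.327). Gad2 was at 49.1 to 62.1 and 43.9 to 58.6 CPM (0.12, SE 0.09, edgeR adjusted p = 0.436). Of 16 interneuron genes 4 were higher in set A, against 6.87% of all genes, but 2 without control 5 or stretched 2, 4 or 5. Differences were positive for 14 of the 16 (median 0.32). Their summed levels overlapped, at 388 to 455 and 331 to 415 CPM, whereas the mean of log2(CPM + 1) over the list did not, at 3.61 to 4.00 in set A and 3.39 to 3.54 in set B. Lhx6, the transcription factor of interneurons from the medial ganglionic eminence, was at 37.8 to 46.9 CPM in set A and 20.7 to 30.1 CPM in set B without overlap (0.71, SE 0.11, edgeR adjusted p = 0.000409). Pvalb, the calcium buffer parvalbumin, was at 7.71 to 13.8 and 4.54 to 8.58 CPM (0.94, SE 0.18, edgeR adjusted p = 0.00208). The neuropeptide gene Cck (1.08, edgeR adjusted p = 0.0332) was lost without control 4, 5 or 6 or stretched 2, 4 or 5 (0.97 to 1.09, edgeR adjusted p 0.0597 to 0.0903).

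Of 12 genes of hippocampal subfields 2 were higher and 1 was lower in set A, against 6.87% and 5.74% of all genes. Wfs1, enriched in CA1 pyramidal neurons, was at 49.9 to 63.99 CPM in set A and 30.8 to 47.3 CPM in set B (0.56, SE 0.08, edgeR adjusted p = 0.000274). Prox1, the transcription factor of dentate granule cells, was at 141 to 232 and 197 to 291 CPM (-0.44, SE 0.09, edgeR adjusted p = 0.00560). Prox1 did not pass in 1 of 24 alternative settings. The adhesion gene Nectin3 (0.57, edgeR adjusted p = 0.0290) was lost without control 5 or 6 or stretched 2 (0.51 to 0.56, edgeR adjusted p 0.0602 to 0.0655).

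Activity-induced genes were lower in set A. Of 19 genes induced rapidly by activity 9 were lower and none higher, against 5.74% of all genes that were lower. The list's median difference was -0.79. In 7 members every library of set A lay below every library of set B, against 1.77% of all genes. Npas4, a transcription factor induced by calcium entry in neurons (chr19:4984355-4990316, mm10), was at 10.4, 14.2 and 10.1 CPM in control and 5.44, 4.77 and 11.03 CPM in stretched libraries of set A. In set B it was at 59.9, 106 and 67.04 CPM in control and 38.01, 62.95 and 38.2 CPM in stretched libraries. The highest library of set A was far below the lowest of set B (-2.73, SE 0.24, edgeR adjusted p = 1.37e-05).

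Arc, whose protein promotes removal of AMPA receptors from the synapse (chr15:74669083-74672570, mm10), was at 6.69, 5.79 and 7.36 CPM in control and 7.48, 6.76 and 5.85 CPM in stretched libraries of set A. In set B it was at 37.9, 61.2 and 40.8 CPM in control and 29.7, 37.9 and 24.2 CPM in stretched libraries (-2.51, SE 0.17, edgeR adjusted p = 1.68e-07). The values of set A were close to each other, and those of set B ranged more widely. Nr4a1, an orphan nuclear receptor of the immediate early class, was at 4.69 to 7.32 CPM in set A and 22.3 to 38.8 CPM in set B (-2.43, SE 0.14, edgeR adjusted p = 4.07e-08).

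Fos, the AP-1 subunit most used as a mark of recent activity, was at 49.2, 82.8 and 55.96 CPM in control and 32.95, 35.4 and 38.9 CPM in stretched libraries of set A. In set B it was at 85.4, 166 and 145 CPM in control and 70.99, 82.1 and 61.9 CPM in stretched libraries. Within each condition the sets did not overlap, while over both conditions they did (-1.04, SE 0.16, edgeR adjusted p = 0.000716). Junb, another AP-1 subunit, was at 60.8 to 74.4 CPM in set A and 113 to 136 CPM in set B (-0.90, SE 0.08, edgeR adjusted p = 1.63e-06). Egr1 (-1.11, SE 0.24), Ier2 (-0.79, SE 0.11), Btg2 (-0.84, SE 0.09) and Gadd45b (-0.94, SE 0.19) passed as well. Egr3 (-0.02, SE 0.16), Gadd45g (-0.08, SE 0.10) and Klf4 (0.12, SE 0.45) were among the 10 that did not.

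The upstream sequences of Npas4, Nr4a1 and Fos are shown as examples from the rapid list. CREB, a factor that activity switches on, binds the element TGACGTCA and its half-site TGACG. They are the 250 bases before the RefSeq transcription start (GRCm38.p6), 5′ to 3′ on the gene's strand, with TGACG on either strand (TGACG or CGTCA) in capitals. Npas4 is taken from chr19:4989972-4990221 on the minus strand, Nr4a1 from chr15:101266596-101266845 and Fos from chr12:85473640-85473889, both on the plus strand.
Npas4: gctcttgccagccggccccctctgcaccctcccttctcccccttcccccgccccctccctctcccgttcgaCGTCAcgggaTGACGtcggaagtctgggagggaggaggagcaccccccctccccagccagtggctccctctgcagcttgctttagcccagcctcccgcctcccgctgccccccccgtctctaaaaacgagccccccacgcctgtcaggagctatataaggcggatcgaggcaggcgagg
Nr4a1: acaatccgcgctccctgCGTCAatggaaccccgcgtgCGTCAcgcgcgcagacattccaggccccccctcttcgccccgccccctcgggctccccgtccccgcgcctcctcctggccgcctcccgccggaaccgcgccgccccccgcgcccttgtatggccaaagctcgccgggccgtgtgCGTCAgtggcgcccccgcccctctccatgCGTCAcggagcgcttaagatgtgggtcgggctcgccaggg
Fos: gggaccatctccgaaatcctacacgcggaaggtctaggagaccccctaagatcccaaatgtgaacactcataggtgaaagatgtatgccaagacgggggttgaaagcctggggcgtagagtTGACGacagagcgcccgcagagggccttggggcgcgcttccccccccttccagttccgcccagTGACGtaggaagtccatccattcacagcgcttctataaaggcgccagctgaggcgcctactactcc
The Npas4 stretch holds 2 matches, that of Nr4a1 holds 4 and that of Fos holds 2, and none holds the whole TGACGTCA. In windows from 250 bases before to 50 after the start, TGACG on either strand was found in 11 of the 15 rapid genes with an entry (73.3%), in 12 of the 14 delayed genes (85.7%) and in 23.0% of 27025 genes. A gene with several listed starts counted if any of its windows held a match, so such genes had more chances. The whole TGACGTCA, which also contains the half-site, was in 3 rapid genes (20.0%), 3 delayed genes (21.4%) and 2.03% of all. The matches describe the letters of these windows only, for list members that passed and for those that did not. A part of CREB in the set difference was not tested.

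The delayed genes were lower as well. Of 19, 14 were lower in set A, against 5.74% of all genes, and none higher, with a median of -0.72. In 8 members every library of set A lay below every library of set B, against 1.77% of all genes. Bdnf, a neurotrophin released with activity, was at 152, 174 and 115 CPM in control and 119, 104 and 115 CPM in stretched libraries of set A. In set B it was at 211, 298 and 259 CPM in control and 202, 224 and 172 CPM in stretched libraries (-0.81, SE 0.11, edgeR adjusted p = 0.000114). Within each condition all 3 libraries of set A lay below those of set B, and over both conditions the ranges overlapped.

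Nptx2, a secreted pentraxin that gathers AMPA receptors, was at 2.02 to 6.24 CPM in set A and 8.73 to 34.7 CPM in set B (-1.99, SE 0.35, edgeR adjusted p = 0.00271). Ptgs2, the inducible cyclooxygenase, was at 0.148 to 1.6 and 2.73 to 7.12 CPM (-2.13, SE 0.40, edgeR adjusted p = 0.00249). Scg2, a granin of dense-core vesicles, was at 214 to 253 and 314 to 468 CPM (-0.72, SE 0.09, edgeR adjusted p = 4.99e-05). None of these 3 genes overlapped between the sets. The nuclear receptor Nr4a2 (-1.33, SE 0.17), the activin subunit Inhba (-1.25, SE 0.24), the receptor Gpr3 (-1.25, SE 0.22), the secreted neuropeptide precursor Vgf (-1.02, SE 0.21), the prohormone convertase Pcsk1 (-0.80, SE 0.12) and the transcription factor Crem (-0.80, SE 0.14) also passed. Rasgrp1, a Ras activator, had a positive difference and did not pass (1.02, SE 0.34, edgeR adjusted p = 0.0640).

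Summed over the lists, rapid genes were at 338 to 396 CPM in set A and 618 to 924 CPM in set B, and delayed genes at 1429 to 1832 and 2199 to 2438 CPM. The summed markers of mature neurons overlapped, at 7032 to 9212 and 7098 to 9127 CPM, as did the glutamatergic sums above. Without control 4, 10 rapid and 14 delayed genes were lower and 1 delayed gene was higher. Over all 24 alternatives the lower counts were 8 to 11 and 10 to 15. The higher astrocyte sums of set A moved with these genes, and their part in the difference was not tested.

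**Figure D4:**
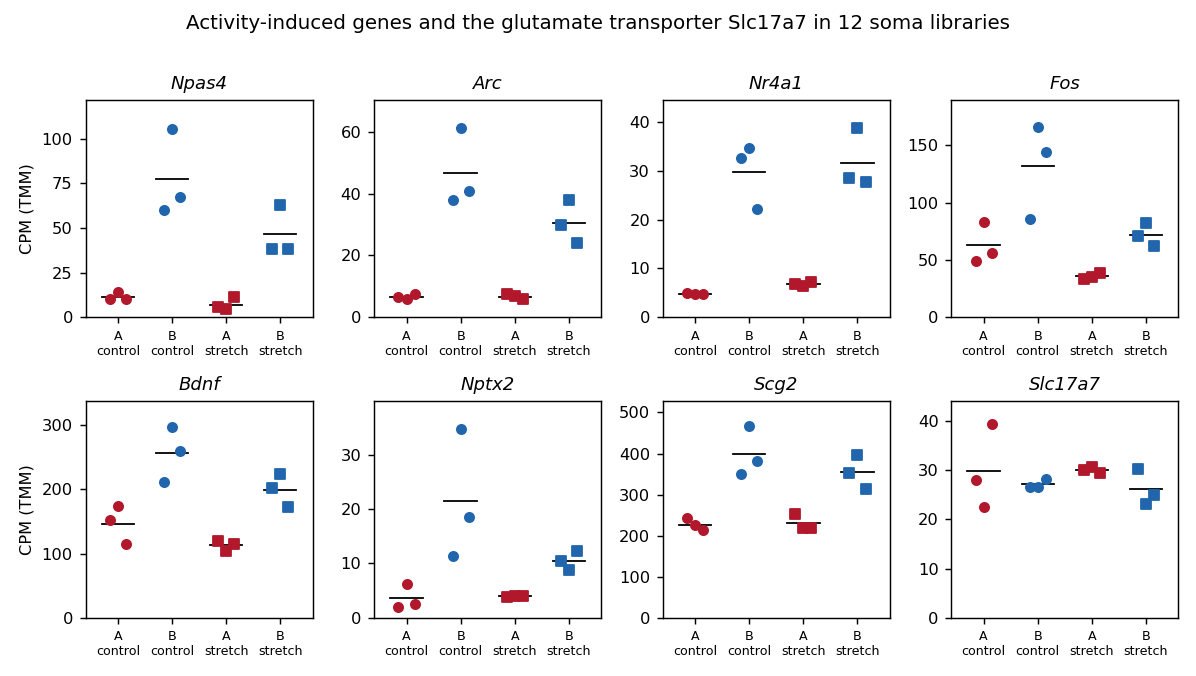
CPM after TMM scaling of activity-induced genes and of the glutamate transporter Slc17a7 in each soma library, by set and condition, with bars at group means. Npas4 and Arc are lower in every library of set A than in any of set B, and Slc17a7 overlaps.

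The lists of immature and of mature neurons showed no common direction. Of 20 genes of immature neurons 3 were higher and 4 lower in set A, against 6.87% and 5.74% of all genes, with a median of -0.03. The higher count was 1 to 2 without control 1 or 2 or stretched 2 or 8, and the lower count was 2 to 3 without control 1 or 2 or stretched 2 or 8. Neurod1, a transcription factor of newborn granule neurons (chr2:79452521-79456751, mm10), was at 304, 343 and 293 CPM in control and 445, 390 and 416 CPM in stretched libraries of set A. In set B it was at 589, 539 and 535 CPM in control and 501, 604 and 536 CPM in stretched libraries, all above set A (-0.61, SE 0.09, edgeR adjusted p = 0.000252). The neuronal differentiation factor Sox4 (-0.42, SE 0.10) was lower too, and Sox11 (-0.33, edgeR adjusted p = 0.0263) was lost without control 2 or stretched 2, 6 or 8 (-0.33 to -0.28, edgeR adjusted p 0.0505 to 0.0688).

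The neuronal tubulin gene Tubb3 was higher in set A, at 2757 to 3623 and 2364 to 3063 CPM (0.26, SE 0.06, edgeR adjusted p = 0.0120). Tubb3 did not pass in 2 of 24 alternative settings. Tubb2b (0.26, edgeR adjusted p = 0.0231) was lost without control 1 or 2 (0.25 to 0.25, edgeR adjusted p 0.0503 to 0.0537). The tubulin-binding gene Stmn2 (0.25, edgeR adjusted p = 0.0359) was lost without control 1, 2, 3 or 6 or stretched 1, 2, 4, 6 or 8 (0.22 to 0.26, edgeR adjusted p 0.0503 to 0.0900).

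Of 20 genes of mature neurons 2 were higher and none lower, against 6.87% and 5.74% of all genes, with a median of -0.01. Camk2a, the alpha subunit of the calcium-dependent kinase of excitatory synapses, was at 291 to 433 CPM in set A and 307 to 362 CPM in set B and did not pass (0.14, SE 0.07, edgeR adjusted p = 0.238). Both calls of the list lay close to the threshold. Camk2b (0.23, edgeR adjusted p = 0.0244) was lost without control 5 or stretched 2, 5 or 8 (0.19 to 0.23, edgeR adjusted p 0.0506 to 0.0718). The heavy neurofilament gene Nefh (0.71, edgeR adjusted p = 0.0316) was lost without control 3, 4 or 5 or stretched 1, 2 or 4 (0.52 to 0.71, edgeR adjusted p 0.0531 to 0.0713).

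Genes of excitatory synapses and excitability that passed were lower in set A. Of 14 excitatory postsynaptic genes 5 were lower, against 5.74% of all genes, and none higher. The lower count was 2 to 3 without control 1, 2, 3, 4 or 5 or stretched 1, 2, 5, 6 or 8. Over all 24 alternatives 1 to 5 were lower and 0 to 1 higher. Differences were negative for 12 of the 14 (median -0.16). Dlg4, the scaffold PSD-95, was at 39.7 to 80.3 CPM in set A and 62.1 to 92.2 CPM in set B (-0.46, SE 0.11, edgeR adjusted p = 0.0132). Dlg4 did not pass in 2 of 24 alternative settings. Grin1, the obligatory subunit of NMDA receptors, was at 43.4 to 50.4 and 55.6 to 72.5 CPM without overlap (-0.45, SE 0.08, edgeR adjusted p = 0.00137). The scaffold gene Shank3 (-0.59, edgeR adjusted p = 0.0351) was lost without control 1, 3, 4 or 5 or stretched 1, 2, 4 or 5 (-0.59 to -0.52, edgeR adjusted p 0.0610 to 0.0839).

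Of 12 presynaptic genes 3 were lower, against 5.74% of all genes, and none higher, with negative differences for 9 of the 12 (median -0.18). The lower count was 1 to 3 over all 24 alternatives. Among those lower were Bsn (-0.47, SE 0.09) and Pclo (-0.38, SE 0.08), large scaffolds of the active zone. Bsn did not pass in 1 of 24 alternative settings. Pclo did not pass with offsets for transcript length and GC content (-0.20, edgeR adjusted p = 0.144). Of 17 ion channel genes 5 were lower, against 5.74% of all genes, and none higher. The lower count was 3 without control 1 or stretched 1, 2 or 6, and 2 to 6 over all 24 alternatives. Differences were negative for 15 of the 17 (median -0.32). Scn1a, a sodium channel of fast-spiking interneurons (chr2:66270778-66440840, mm10), was at 31.96, 36.7 and 28.4 CPM in control and 34.6, 28.7 and 30.2 CPM in stretched libraries of set A. In set B it was at 57.7, 44.4 and 53 CPM in control and 48.1, 50.1 and 45.2 CPM in stretched libraries, with no overlap (-0.65, SE 0.09, edgeR adjusted p = 0.000277). Kcna1, a potassium channel of axons, was at 51.2 to 76.1 CPM in set A and 95.7 to 101 CPM in set B (-0.60, SE 0.08, edgeR adjusted p = 0.000159).

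Of 11 inhibitory postsynaptic genes 1 was higher and none lower, against 6.87% and 5.74% of all genes. Without stretched 1 or 4, 1 was lower. The higher gene was Gabra2, the alpha-2 subunit of the GABA-A receptor (chr5:70957597-71095849, mm10), at 519, 495 and 567 CPM in control and 729, 703 and 672 CPM in stretched libraries of set A. In set B it was at 267, 216 and 222 CPM in control and 249.6, 308 and 269 CPM in stretched libraries, far below set A (1.26, SE 0.08, edgeR adjusted p = 5.83e-08). Of other alpha subunits, Gabra4 (0.00, SE 0.08) and Gabra5 (-0.12, SE 0.12) did not pass.

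Among 12 genes of pairs that switch with age 2 were higher and 2 lower, against 6.87% and 5.74% of all genes. When control 1, 2 or 4 or stretched 2 or 4 was left out, 1 in each direction passed. Grin2a, the later NMDA receptor subunit, was at 49.95 to 85.8 CPM in set A and 73.6 to 109 CPM in set B (-0.45, SE 0.10, edgeR adjusted p = 0.00819). Grin2a did not pass in 1 of 24 alternative settings. Its earlier counterpart Grin2b (-0.30, edgeR adjusted p = 0.0464) was lost without control 1, 2 or 4 or stretched 2, 4, 5, 6 or 8 (-0.32 to -0.21, edgeR adjusted p 0.0528 to 0.109). The chloride exporter gene Slc12a5, which rises as GABA becomes inhibitory, was at 7.62 to 54.7 and 9.73 to 31.5 CPM (0.68, SE 0.40, edgeR adjusted p = 0.302). The importer gene Slc12a2 was at 5.06 to 8.24 and 6.57 to 8.55 CPM (-0.14, SE 0.14, edgeR adjusted p = 0.557). Neither transporter gene passed.

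Of 10 genes of the perineuronal matrix 1 was higher and 2 were lower, against 6.87% and 5.74% of all genes. When control 4 was left out, 3 were higher. Bcan, the proteoglycan brevican (chr3:87987531-88000230, mm10), was at 252, 253 and 286 CPM in control and 193, 259.9 and 232 CPM in stretched libraries of set A and at 108, 121 and 125 CPM in control and 95.1, 91.3 and 92.4 CPM in stretched libraries of set B, with no overlap (1.23, SE 0.08, edgeR adjusted p = 1.15e-07). The link protein gene Hapln4 (-0.96, edgeR adjusted p = 0.0276) was lost without control 1, 3, 5 or 6 or stretched 8 (-0.89 to -0.78, edgeR adjusted p 0.0551 to 0.0698). The astrocyte sums moved with Bcan, and their part was not tested.

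Of 9 genes of the integrated stress response 5 were lower in set A, against 5.74% of all genes, and none higher. The lower count was 1 without stretch as a covariate and 3 when genes averaging under 10 CPM were left out. Trib3, a pseudokinase of that response, was at 1.02 to 3.62 CPM in set A and 2.996 to 6.35 CPM in set B (-1.28, SE 0.24, edgeR adjusted p = 0.00227). Its regulator Atf4 differed by -0.45 (SE 0.11) and the stress factor Atf3 by -0.80 (SE 0.19, edgeR adjusted p = 0.0116). Atf4 and Atf3 each lost the call in 1 alternative setting. Of 9 p53 targets 2 were lower, against 5.74% of all genes. They were the cell death gene Pmaip1 (-0.90, SE 0.12) and the p53 antagonist Mdm2 (-0.55, SE 0.08), both without overlap. Without control 4 another 2 p53 targets were higher.

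Of 9 heat shock genes 1 was higher and 1 lower, against 6.87% and 5.74% of all genes. The co-chaperone Bag3 was higher (0.73, SE 0.11). The chaperone gene Hspa1a was lower (-0.52, edgeR adjusted p = 0.0216). Its call was lost without control 3 or stretched 2 or 4 (-0.51 to -0.42, edgeR adjusted p 0.0510 to 0.0553). None of 9 hypoxia and glycolysis genes passed. Of 8 long RNAs kept in the nucleus, listed as a mark of RNA quality, 1 was higher and 1 lower, beside the same shares of all genes. Neat1 was higher (1.26, SE 0.29, edgeR adjusted p = 0.0114) and Mirg lower (-0.67, SE 0.14, edgeR adjusted p = 0.00610). Malat1 was at 311 to 1353 CPM in set A and 548 to 1670 CPM in set B and did not pass (-0.51, SE 0.24, edgeR adjusted p = 0.196).

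Over all autosomal genes, the naming rule took the most different ones with a mean of at least 10 CPM and no overlap. Wdfy1, an endosomal adaptor protein, was at 81.1, 86.1 and 77.9 CPM in control and 97.6, 88.1 and 85.3 CPM in stretched libraries of set A. In set B it was at 19.1, 20.1 and 17.7 CPM in control and 16.7, 18.4 and 17.8 CPM in stretched libraries, so the spread within each set was small beside the difference (2.23, SE 0.08, edgeR adjusted p = 1.44e-10). Ass1, an enzyme of arginine synthesis, was at 66.8 to 124 CPM in set A and 20.04 to 56.7 CPM in set B (1.77, SE 0.17). Mt1, a metal-binding metallothionein, was at 138 to 354 and 51.2 to 88.0 CPM (1.63, SE 0.15), and the mitochondrial enzyme gene Adhfe1 at 13.8 to 18.9 and 4.86 to 6.6 CPM (1.61, SE 0.13). Complement C3 completed the high end.

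At the low end, Npas4, Arc and Nr4a1 were joined by Sln and Fndc9. Sln, whose small protein sarcolipin inhibits the calcium pump of muscle, was at 9.59 to 19.3 CPM in set A and 47.0 to 136 CPM in set B (-2.42, SE 0.16, edgeR adjusted p = 3.30e-07). Fndc9 was at 6.84 to 10.1 and 18.1 to 46.99 CPM (-1.90, SE 0.17, edgeR adjusted p = 3.29e-06).

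Without the library control 4, which stood apart on component 1, the counts of some lists moved. Higher in set A were then 2 oligodendrocyte precursor genes in place of 1, 1 microglia gene in place of 2, 3 interneuron genes in place of 4, 1 mature neuron gene in place of 2 and 9 reactive glia genes in place of 10. Lower in set A were then 1 radial glia gene in place of 0, 1 mature oligodendrocyte gene in place of 2, 5 immature neuron genes in place of 4, 3 excitatory postsynaptic genes in place of 5 and 2 heat shock genes in place of 1. The other moves without it stand beside their lists.

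The set difference was also estimated within each condition, 3 libraries against 3. Within control somata 446 of 15223 genes passed (2.93%), 292 higher in set A (1.92%) and 154 lower (1.01%). The controls of set B include control 4, which lay near the stretched libraries on component 1. Its part in the control values below was not tested. Within stretched somata 1016 of 15390 passed (6.6%), 637 higher (4.14%) and 379 lower (2.46%). Gfap differed by 1.14 in control and 0.97 in stretched somata, Aqp4 by 1.43 and 0.96, and Ccnb1 by 1.19 and 1.19. Npas4 differed by -2.71 and -2.70, Arc by -2.78 and -2.19, and Bdnf by -0.77 and -0.82. The median over the astrocyte list was 0.79 in control and 0.81 in stretched somata, that over the rapid list -0.97 and -0.66, and that over the delayed list -0.78 and -0.66. Genes called over both conditions are bound to share a sign across them, so that sign is no separate evidence.

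The interaction of set and stretch, which tests whether the set difference depended on condition, called 0 of 16175 genes in edgeR, with 1210 at an unadjusted p under 0.05. DESeq2 called 2 genes, limma voom called 0, and edgeR with no filter on low counts called 356.

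**Figure D5:**
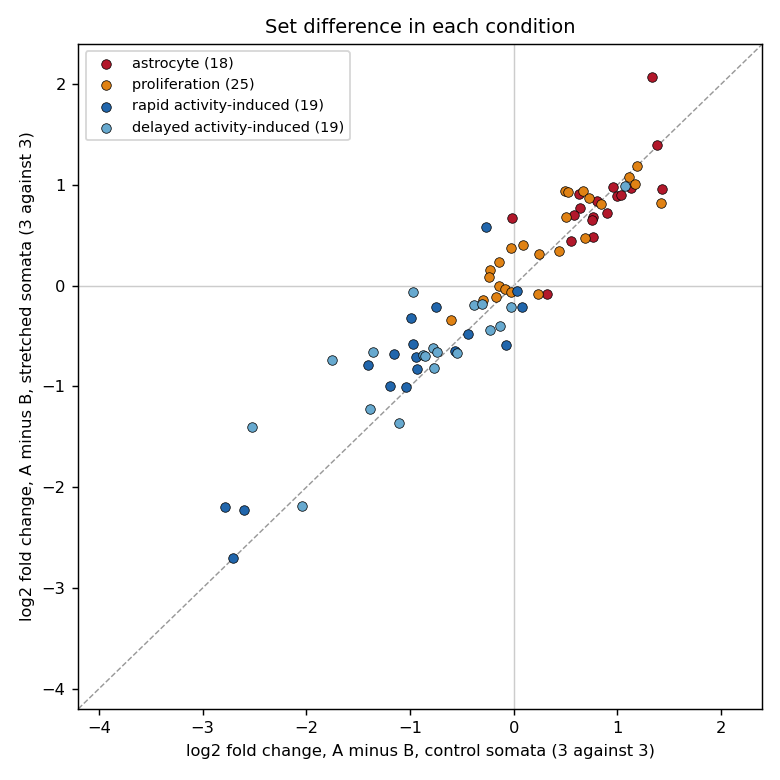
Log2 fold change (set A minus set B) within control somata (x axis) against that within stretched somata (y axis), 3 libraries against 3 in each, for members of gene lists, with the dashed line marking equal values. Npas4 (-2.71 and -2.70) and Arc (-2.78 and -2.19) lie at the lower left, and astrocyte genes such as Gfap (1.14 and 0.97) at the upper right.

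Axonal libraries with the same numbers were not used to divide the sets, although the axon and soma library of a number may come from the same culture. Set A had 6 axonal libraries and set B had 4. They differed in how many genes had a count. In set A stretched 8 had 10065 and the others 4263 to 6029, and in set B the libraries had 6025 to 10242. Control 5 of set B, with 10242 genes, also had the largest total of the axonal libraries (43048953 counts). In edgeR 0 of 12610 autosomal genes passed and 876 had an unadjusted p under 0.05, at a biological coefficient of variation of 3.27 against 0.209 in somata. The count depended on the tool: DESeq2 called 1428 genes (228 higher in set A and 1200 lower), limma voom 285 and limma with the replicate number as a random block 28. Of 1631 genes that passed in somata and were tested in axons 994 had the same sign there, and of all 11793 genes tested in both 6475 did.

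Single genes were scattered in axons. Gfap was at 19874, 18812 and 14656 CPM in control and 15211, 4793 and 5861 CPM in stretched axons of set A. In set B it was at 3837 CPM in control 5 and 2779, 10190 and 5257 CPM in stretched 4, 5 and 6, within the range of set A in part (0.99, edgeR adjusted p = 0.362). Npas4 had a count in 0 of 6 axonal libraries of set A and in 3 of 4 of set B, at 306 CPM in control 5 and 0, 215 and 44.9 CPM in stretched 4, 5 and 6 (edgeR adjusted p = 0.362). Arc had a count in 1 library of set A (135 CPM in control 1) and in 1 of set B (97.8 CPM in control 5). Nr4a1 had counts in 1 library of set A and 2 of set B, and Fos in 3 and 3. Neither Arc, Nr4a1 nor Fos passed in axons. Bdnf was at 0, 9.41, 0.386, 32.6, 0 and 42.5 CPM in the 6 libraries of set A and at 551, 323, 464 and 409 CPM in the 4 of set B (edgeR adjusted p = 0.362). The sets did not overlap for Bdnf, but fitted folds of genes with libraries at 0 are no bounds and are not given. The part of depth and of the number of genes detected in these axonal values was not tested.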

How the data were processed

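RNA from the soma and axon sides was sequenced, and the authors deposited 1 table of raw counts per gene and library. The submitters' processing notes name FastQC 0.11.9, MultiQC 1.12, fastp 0.20.1, STAR 2.7.08a, HTSeq 0.13.5 and mm10. Annotation, strand setting and use of molecular identifiers are not given in the sources used here, so overlapping genes may share reads. Symbols and chromosomes were matched for 55141 of 55487 gene IDs (GENCODE M21), and coordinates are those of that annotation.

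Counts of the 12 soma libraries were filtered by filterByExpr on the 4 combinations of set and condition, scaled by TMM and fitted in edgeR 4.0.16 (R 4.3.3; robust quasi-likelihood, stretch as covariate), with Benjamini-Hochberg adjustment over all genes tested. SE is the absolute log2 fold change over the square root of F. The method was tested on simulated data. Alternatives used DESeq2 1.42.0, limma 3.58.1 and offsets from mgcv 1.9.3, other scalings and filters, and each library left out. Motifs were counted in RefSeq promoter windows.

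The members and gene lists were chosen with earlier results of these data known. Of 400 list entries 397 matched 1 gene ID. The rule named fixed marker genes, the 2 genes with the largest change that passed in each list, and the 5 highest and 5 lowest of all with a mean of at least 10 CPM, no overlap and no predicted-gene name. Other genes named were picked after their values were seen. Some genes that the rule named are not reported here. Control axon 7 belongs to neither set and was not used.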

Additional observations from a re-analysis of the deposited data

Results flagged for a closer look

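In each named gene, the highest and lowest library of a set of 6 were compared with the rest of that set by Dixon's ratio. Of 260 sets of 130 genes 14 held a library beyond the 95% critical value for 6, where chance gives about 13, and in each case it was the highest library. The library control 1 was far above the other 5 of set A in Inhba (6.834 CPM). The library control 2 was far above the other 5 of set A in Gfap (10429 CPM), Vtn (9.891 CPM), Serpina3n (222.6 CPM) and Saa3 (49.9 CPM). The library control 3 was far above the other 5 of set A in Cck (37.2 CPM), Nefh (16.09 CPM) and Id4 (14.79 CPM). The library stretched 1 was above the other 5 of set A in Gad2 (62.08 CPM, the next at 53.96 CPM), with a ratio barely beyond the critical value. The library control 5 was far above the other 5 of set B in Ttr (5.807 CPM), Pvalb (8.579 CPM) and Ass1 (56.71 CPM). The library stretched 5 was far above the other 5 of set B in C4b (18.68 CPM). The library stretched 6 was far above the other 5 of set B in Slc12a5 (31.47 CPM). No named gene passed the test of the interaction between set and stretch.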

How the results depend on the processing

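The soma count of 2039 genes was 446 in control and 1016 in stretched somata alone, with 3 libraries against 3 in each. It was 982 without stretch as a covariate and 230 against a minimum log2 change of 0.5. The other settings gave 1369 (mean of at least 10 CPM, fewer genes tested) to 2662 (limma voom), and leaving out 1 library gave 1444 (without stretched 2) to 2072 (without control 4). No scaling moved the median of all genes by more than 0.02. The interaction called 356 genes with no filter on low counts and 2 with DESeq2, and 0 with any library left out. The axon count was 1 with no filter, 1428 with DESeq2, 285 with limma voom, and 0 to 5 with 1 library left out (5 without stretched 2). The cause was not tested. With the replicate number as a random replicate block, limma called 2345 soma genes, 0 for the interaction and 28 in axons. Within set and condition, deviations of same-numbered soma libraries from means of 3 correlated at 0.00774 on average (-0.0852 to 0.127), so that average does not show pairing by number. By chi-square per degree of freedom between counts, the closest soma libraries were stretched 2 and 8 (6.14). Next came control 4 and stretched 4 (9.667), so single libraries may not be independent. Gad1, which never passed, changed sign with limma voom (0.06349), without both libraries numbered 4 (0.08008) and without control 4, ranging from -0.1072 to 0.1052 with 1 library left out. Over the named genes and their settings 2917 values kept direction and call, 165 lost the call, 3 gained it and 3 changed sign. Slc12a5 passed with no filter and with limma voom, and Gad2 with offsets for length and GC content. Precision was lowest for genes of few counts, such as Gjb6 (SE 0.46).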

Other observations

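Outside the comparisons above, some further gene groups were read off after the values were seen and are given as values only. Their counts stand beside 6.87% of all genes higher in set A and 5.74% lower. Feedback inhibitors of receptor signalling through ERK were lower in set A: of 9 Spry, Spred and Dusp genes 5 passed as lower and none as higher (median -0.89). Spry4 was at 26.1 to 39.9 CPM in set A and 49.6 to 67.7 CPM in set B (-0.96, SE 0.10, edgeR adjusted p = 1.26e-05), and Spry2 at 12.5 to 25.5 and 25.2 to 45.3 CPM (-0.93, SE 0.12, edgeR adjusted p = 0.000119). Of the 3 Etv genes, transcription factors that this pathway induces, 2 were lower and 1 was higher.

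Groups picked as higher in set A included the Id genes, inhibitors of neurogenic transcription factors, with 3 of 4 passed, against 6.87% of all genes. Id3 was at 230.3 to 477 CPM in set A and 96.9 to 183 CPM in set B (1.20, SE 0.13, edgeR adjusted p = 5.26e-05). All 3 metallothionein genes passed, between 0.92 and 1.98. Of astrocyte-enriched genes that no list held, Ednrb, Prdx6, Cst3 and S1pr1 passed, between 0.81 and 1.52. Prdx6, an antioxidant enzyme, was at 651 to 1031 and 230.1 to 387 CPM (1.40, SE 0.11, edgeR adjusted p = 9.35e-07). The predicted gene Gm15446, left out of the naming rule for its name, was at 0.249 to 0.717 and 14.96 to 22.97 CPM (-5.30, SE 0.22, edgeR adjusted p = 4.41e-10), the sets lying far apart.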
